A study of Drosophila melanogaster with 6 samples.

Results

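Odorant-binding proteins are small secreted proteins that fill the fluid around chemosensory neurons, where they bind odorants, pheromones and tastants before these reach the receptors. They are made by the support cells of the sensory hairs, not by the neurons. Several members of the Drosophila family are known from tissues without a sense of smell or taste, among them glia, fat body and the male reproductive tract. Here the members were every probe set annotated to a single gene named lush or Obp followed by a digit, without Obp99b, which gave 50 probe sets of 47 genes among 18769 probe sets that are not controls. The table of RefSeq genes held 52 genes of the family. Obp50b, Obp50c and Obp57d had no probe set of their own, and Obp83a was not analysed here.

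The values came from 6 Affymetrix arrays of RNA from heads of adult Drosophila melanogaster males that were 2 to 5 days old. Deletion males (3 arrays) carried Sxlfp7BO, which takes out the whole Sex-lethal gene (Sxl), together with the mutant marker alleles cm and ct that flank it on the X, and wild-type males (3 arrays) were Oregon-R brothers. The deletion chromosome had been crossed repeatedly into Oregon-R, and both kinds of male came from a cross of 1 pair of flies in which mother and father both carried it. A difference between the groups therefore cannot be assigned to Sxl apart from cm, ct and linked X sequence. The labels call the samples of a genotype biological replicates and do not say how many heads each held.

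Sxl signal on its 3 probe sets was 3.99 to 6.26 in deletion males and 88.8 to 206 in wild-type males, so the arrays matched their labels. Array medians were 14.3 to 14.8 and the lowest intensity was 3.52. Values are linear array intensities, and log2 fold changes are of intensity plus 1, deletion minus wild type. A probe set was tested if its mean over all 6 arrays reached the 40th percentile, an intensity of 8.35, and it was called at a limma p of at most 0.05 after Benjamini-Hochberg adjustment over all 11261 tested probe sets. Intensities of different probe sets are not on a common scale. They were ranked only to choose which genes or probe sets are named, and a summed intensity of a list follows its brightest probe sets most.

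Of the 50 member probe sets, 30 from 29 genes were tested. The other 20 had intensities of 4.28 to 8.88 in deletion males and 4.02 to 9.08 in wild-type males. They include the only probe sets of 18 genes, among them the seminal fluid members Obp22a, Obp51a, Obp56f and Obp56i, the taste member Obp57e, and, without an assigned site, Obp46a, Obp47a, Obp47b, Obp50a, Obp50d, Obp50e, Obp56b, Obp56c, Obp58b, Obp58c, Obp73a, Obp85a and Obp93a. Obp59a and Obp19c each had 1 probe set above the filter and 1 below it. Without the filter none of the 20 was called with limma, none had a p under 0.05 before adjustment, and their log2 fold changes ran from -0.16 to 0.15.

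Among the 30 tested probe sets, 3 were called with genotype as the only term: Obp8a and Obp56e rose and Obp44a fell in deletion males. That is 10% of them, where 2.6% of all tested probe sets were called, 1.23% higher and 1.38% lower. Before adjustment 13 of the 30 had a limma p under 0.05 in that fit, where 1985 of all 11261 tested probe sets did. The median log2 fold change of the 30 was 0.05 against 0.00 over all tested probe sets, with 16 positive and 14 negative. Arrays of equal replicate number deviated together weakly, with correlations of 0.216, 0.248 and 0.114 after subtraction of each genotype's mean. A second fit that took this number as a block called 12 of the 30, 7 higher and 5 lower. It called 7.4% of all tested probe sets, 3.42% higher and 3.98% lower. This pairing rests on the values alone: what the samples of equal number shared is not stated. In 22 of the 30 the difference had 1 direction in all 3 pairs of equal number, where 44.7% of all tested probe sets did so. In 11 of the 30 the 3 values of a genotype all lay beyond the other 3, in 9 on the higher side and in 2 on the lower, where 24% of all tested probe sets did so, 12.1% higher and 12% lower. No test over the family as a list was made.

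Obp8a, one of the members known as seminal fluid proteins of the male reproductive tract, rose most among the members called with genotype only. Its intensity was 125, 128 and 133 in deletion males and 75.2, 62.3 and 66.3 in wild-type males. Every deletion array lay above every wild-type array. The means were 129 ± 3.97 in deletion males and 68.0 ± 6.59 in wild-type males (SD, n = 3 arrays each), a log2 fold change of 0.92 ± 0.08 (SE) with a limma adjusted p of 0.00252. It was called with each of the 6 arrays left out in turn, with adjusted p from 0.0006 to 0.0271. Obp8a is X-linked. It is 255 genes away from Sxl, beyond the marker gene ct, which is 51 genes away. Among the 14 tested probe sets of the 10 genes on either side of Obp8a, 1 was called, that of CG15369, which fell to 10.7 ± 0.416 in deletion males, against 18.3 ± 2.65 in wild-type males (log2 fold change -0.71, limma adjusted p = 0.0208). The median over those 14 was -0.03. In heads, fewer cells that make a transcript and less of it per cell cannot be told apart, here and below.

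Obp56e, another seminal fluid member, from the Obp56 gene cluster on chromosome arm 2R, also rose. It had 454, 379 and 438 in deletion males and 303, 336 and 311 in wild-type males, again without overlap. The means were 424 ± 39.6 in deletion males and 316 ± 17.1 in wild-type males (SD, n = 3 arrays each), a log2 fold change of 0.42 ± 0.08 (SE) with a limma adjusted p of 0.038. The call was lost without the intensity trend (adjusted p = 0.0747) and when deletion replicate 1 (0.121) or 3 (0.152) or wild-type replicate 2 (0.069) or 3 (0.0997) was left out. Of 21 marker genes of the male tract, sex peptide (SP) and accessory gland proteins among them, 19 were below the filter on these arrays, and the other 2, Acp62F and Acp95EF, had log2 fold changes of -0.19 and -0.18 without a call. The summed intensity of the 21 was 131 to 142 in deletion males and 137 to 138 in wild-type males, and the part of male tract tissue in the rises of Obp8a and Obp56e was not tested.

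Obp44a, known from glia of the central nervous system as a lipid-binding secreted protein, fell slightly. It had 6390.3, 6155 and 6339.7 in deletion males and 7146, 7283 and 7054 in wild-type males. The spread within a genotype was small beside the difference. The means were 6295 ± 124 in deletion males and 7161 ± 115 in wild-type males (SD, n = 3 arrays each), a log2 fold change of -0.19 ± 0.03 (SE) with a limma adjusted p of 0.0334. This call depended on the settings: the adjusted p was 0.152 without the intensity trend, 0.0514 without the filter and 0.0536 after quantile normalization. It was above the threshold in 5 of the 6 fits with 1 array left out, at most 0.149, and below it without wild-type replicate 1 (0.0316). Of 15 tested genes on a list of glial genes, Tsf1 among them, 6 were positive and 9 negative, with a median log2 fold change of -0.04. None was called with genotype only, and alrm (log2 fold change -0.31), an astrocyte gene, and nrv2 (-0.24), a sodium pump subunit, fell with the block (limma adjusted p = 0.0124 and 0.0377). Over all tested probe sets 2.6% were called with genotype only and 7.4% with the block. AdamTS-B had the largest difference of the 15, 0.44, with a limma adjusted p of 0.108, or 0.0926 with the block. In 5 of the 15 the genotypes did not overlap. AdamTS-B was the 1 higher in deletion males, and alrm, nrv2, wrapper (-0.30) and Indy (-0.13) were the 4 lower. Of all tested probe sets, 12.1% lay higher and 12% lower without overlap. The brightest genes on the list, Gs2, Tsf1 and Tret1-1, had log2 fold changes of -0.04, 0.10 and 0.01. Tsf1 is not specific to glia. It makes up a large part of the list's summed intensity, with means of 4845 in deletion males and 4539 in wild-type males. The summed intensity of the 16 genes measured on the list, with Tsf1, was 16277 to 16382 in deletion males and 16465 to 16581 in wild-type males. The part of glial content in the fall of Obp44a was not tested.

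**Figure D1:**
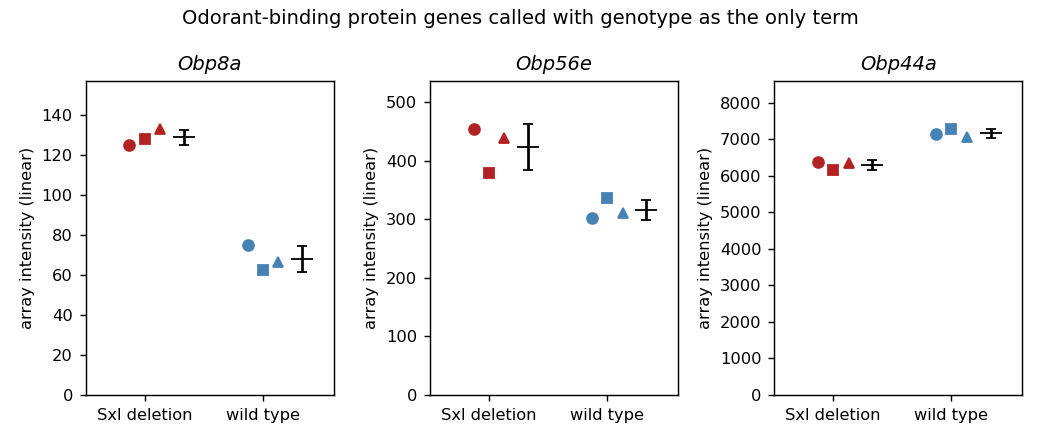
Linear array intensity of Obp8a, Obp56e and Obp44a on each array, deletion males left and wild-type males right. Circles, squares and triangles are replicates 1, 2 and 3, and the bar beside them is the mean ± SD of 3 arrays. For all 3 genes the deletion and wild-type arrays do not overlap.

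The antennal members showed small differences, and none was called with genotype as the only term, where 2.6% of all tested probe sets were. Before adjustment 7 of their 8 tested probe sets had a limma p under 0.05 in that fit, both probe sets of Obp19a among them. Of all 11261 tested probe sets 1985 did. In 4 of the 8 the deletion arrays were all higher, where 12.1% of all tested probe sets did so. Of their 8 tested probe sets 6 had a positive log2 fold change, with a median of 0.10. In the fit with the block 3 rose (lush, Obp84a and Obp59a) and 2 fell, both of them probe sets of Obp19a. Over all tested probe sets that fit called 3.42% higher and 3.98% lower. The pheromone-binding member lush, which serves the detection of the male pheromone cis-vaccenyl acetate by trichoid sensilla, had 724, 659 and 727 in deletion males and 619.9, 597 and 631 in wild-type males. The deletion arrays were all higher. Its log2 fold change was 0.19 ± 0.05 (SE), with a limma adjusted p of 0.117 with genotype only and 0.0394 with the block.

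Obp84a, a member of coeloconic sensilla, had 212, 219 and 249 in deletion males and 193, 181 and 193 in wild-type males. Its log2 fold change of 0.26 ± 0.07 (SE) had a limma adjusted p of 0.11, or 0.0476 with the block. Obp59a, a member needed for humidity sensing, had 131, 114 and 126 in deletion males and 104, 87.1 and 107 in wild-type males on its brighter probe set. For both genes the 2 genotypes did not overlap. The log2 fold change of Obp59a was 0.31 ± 0.10 (SE), with a limma adjusted p of 0.142, or 0.0311 with the block. The other probe set of Obp59a was below the filter and had a log2 fold change of -0.02.

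Obp19a went the other way on both of its probe sets. The brighter had 909, 739 and 895 in deletion males and 999, 909 and 1032 in wild-type males, and the other 525, 454 and 486 in deletion males and 583, 515 and 552 in wild-type males. The genotypes overlapped on both, while each deletion array was below the wild-type array of equal replicate number. The log2 fold changes were -0.21 ± 0.09 and -0.17 ± 0.07 (SE), with limma adjusted p of 0.261 and 0.252, or 0.0355 and 0.0494 with the block. Both probe sets measure 1 gene and are not independent.

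The remaining antennal members differed less. Obp83b, which is found in trichoid sensilla, had 2678, 2757 and 2695 in deletion males and 2558, 2526 and 2591 in wild-type males, a log2 fold change of 0.08 with a 95% interval of 0.00 to 0.16. Obp69a, also a trichoid member, had 1876, 1802 and 1901 in deletion males and 1668, 1633 and 1827 in wild-type males, a log2 fold change of 0.12 with a 95% interval of 0.00 to 0.24. Obp28a, a member of basiconic sensilla, had 1058, 957 and 1066 in deletion males and 988, 968 and 1023 in wild-type males, a log2 fold change of 0.05 with a 95% interval of -0.08 to 0.17. The limma adjusted p of these 3 was 0.268, 0.275 and 0.728, and none was called with the block either.

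Of 24 tested genes on a list of other olfactory organ genes, 14 were positive and 10 negative (median log2 fold change 0.02), and a5, an antennal protein, was the 1 called, with and without the block. It fell to 564 ± 9.09 in deletion males, against 671 ± 32.2 in wild-type males (SD, n = 3 arrays each; log2 fold change -0.25, limma adjusted p = 0.0448). The odorant co-receptor gene Orco had 192, 195 and 204 in deletion males and 181, 194 and 204 in wild-type males, a log2 fold change of 0.03. The antennal genes a10 and Os-C had 0.07 and 0.09, and Snmp1, which acts with lush in pheromone detection, had 0.13. The summed intensity of the 33 olfactory genes measured was 5482 to 5838 in deletion males and 5365 to 5696 in wild-type males. Of 186 probe sets of odorant, gustatory and ionotropic receptors 31 were tested, and 0 were called by limma with or without the block. Over all tested probe sets 2.6% were called with genotype only and 7.4% with the block, so few calls would be met in lists of this size. Of these 31, 2 had a p under 0.05 before adjustment, where 1985 of all 11261 tested probe sets did. Among 3 tested genes of bristle support cells the X-linked sn, which bundles actin in bristles, rose to 664 ± 11.1 in deletion males, against 516 ± 41.9 in wild-type males (log2 fold change 0.37, limma adjusted p = 0.0285). Its distance from Sxl and the marker genes was not determined here, and an effect of linked X sequence on sn cannot be told apart. The other 2 tested bristle genes, nompA (0.15) and sv (-0.29), were not called in either fit. The summed intensity of the 6 bristle genes measured, most of it from sn, was 737 to 761 in deletion males and 568 to 649.5 in wild-type males, and their part in the antennal values was not tested.

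Members shared by antenna and taste organs were close in both genotypes. Obp19d had 9618, 9676 and 9446 in deletion males and 9331, 9389 and 9105 in wild-type males, a log2 fold change of 0.05 with a 95% interval of -0.03 to 0.12, which became -0.02 after quantile normalization. Obp56d had 4455, 4822 and 4743 in deletion males and 4225, 4587 and 4626 in wild-type males, a log2 fold change of 0.06 with an interval of -0.05 to 0.18. Neither was called in either fit.

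Neither of the 2 tested members assigned to taste organs alone was called in either fit. Obp49a, which is needed for bitter compounds to suppress the sweet response, had 977, 1007 and 1023 in deletion males and 912, 1056 and 1055 in wild-type males. Its log2 fold change was -0.00 with a 95% interval of -0.15 to 0.14. Obp19b, of the labellum, had 96.6, 99.1 and 99.1 in deletion males and 92.6, 104 and 103 in wild-type males, a log2 fold change of -0.02 with an interval of -0.18 to 0.14. Other taste genes were dim: 16 of 21 were below the filter, and the 5 tested had log2 fold changes of -0.11 to -0.06 and no call. The brightest of them were CheA87a (-0.11), the channel subunit gene ppk29 (-0.11) and the bitter receptor gene Gr32a (-0.06).

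**Figure D2:**
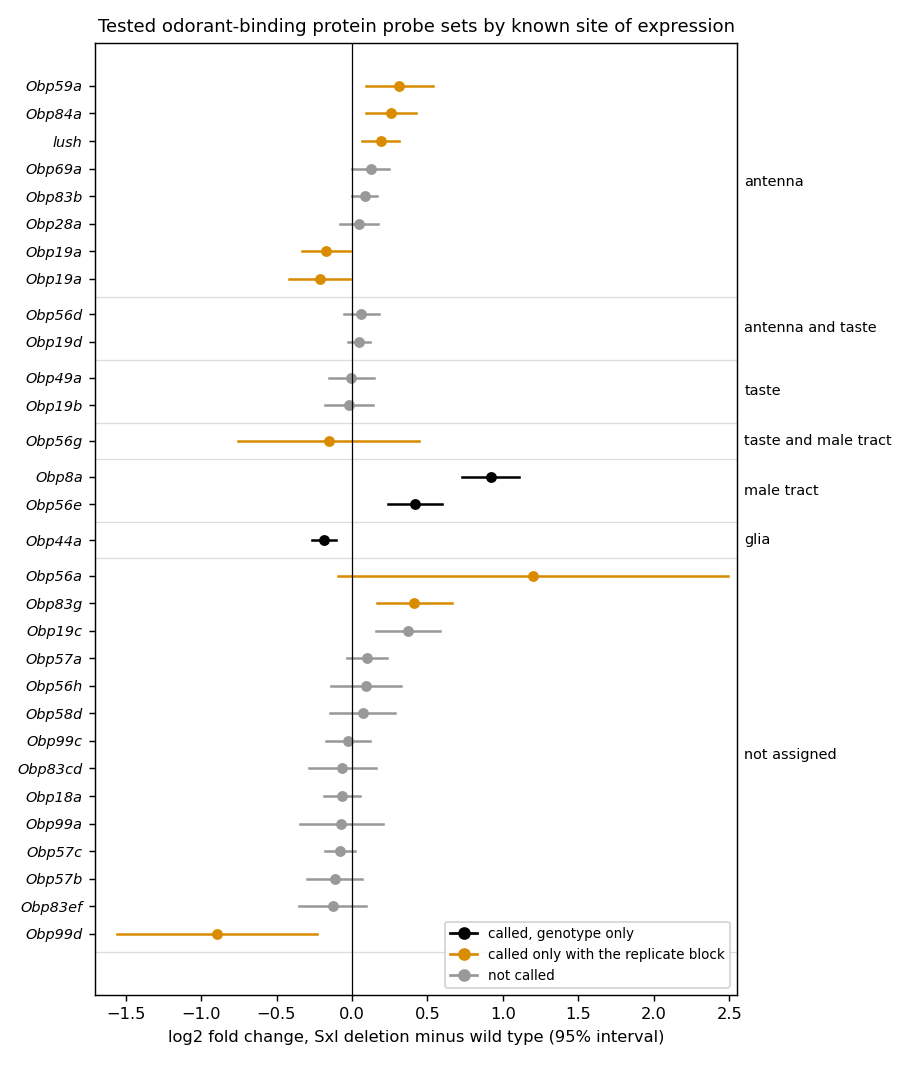
Log2 fold change (deletion minus wild type) of the 30 tested probe sets, grouped by the known site of expression, with the 95% interval of the fit with genotype as the only term. Black points were called in that fit, orange points only with the replicate block, and grey points in neither. Obp8a and Obp56e stand to the right of 0, Obp44a stands to the left, and the intervals of Obp56a, Obp99d and Obp56g are the widest.

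In 3 tested members the coefficient of variation within a genotype was above 20% in both genotypes, against medians over the 30 of 5.81% in deletion males and 6.21% in wild-type males. Obp56g, a member of the labellum and of the ejaculatory duct, had 972, 1671 and 1649 in deletion males and 1094, 1857 and 1819 in wild-type males for replicates 1, 2 and 3. Replicate 1 was low in both genotypes, and each deletion array was below its wild-type partner. The log2 fold change was -0.15 with a 95% interval of -0.76 to 0.45 and a limma adjusted p of 0.825 with genotype only, and 0.0462 with the block.

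Obp56a had 96.7, 32.7 and 37.8 in deletion males and 49.5, 12.8 and 14.2 in wild-type males. Replicate 1 was high in both genotypes, and every deletion array was above its partner. The log2 fold change was 1.20 with a 95% interval of -0.09 to 2.49 and a limma adjusted p of 0.322, and 0.0017 with the block. It ranged from 0.72 to 1.80 when single arrays were left out, lowest without deletion replicate 1 and highest without wild-type replicate 1.

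Obp99d had 18.3, 35.1 and 24.8 in deletion males and 36.1, 70.6 and 42.2 in wild-type males. Replicate 2 was high in both genotypes, and the deletion array was the lower of each pair. The log2 fold change was -0.89 ± 0.29 (SE), with a limma adjusted p of 0.161, and 0.00278 with the block. Obp99d is separated by 1 gene from Obp99b, a fat body member outside the set, which had 2964, 2371 and 2332 in deletion males and 6410.1, 4316 and 3928 in wild-type males (log2 fold change -0.91, limma adjusted p = 0.0446). Replicate 1 was the highest wild-type array for Obp99b and the lowest for Obp99d. Of 12 tested genes of the head fat body and hemolymph, with Obp99b among them, 2 were positive and 10 negative. The positive ones, Yp3 (log2 fold change 0.45, all deletion arrays higher) and Fbp1 (0.12), were called in neither fit. With genotype only 3 fell (tobi, fit and Obp99b), where 1.38% of all tested probe sets were called lower. With the block 8 fell, where 3.98% were called lower. The list was chosen with earlier results of these data known and holds Obp99b, so these counts are not a test of the fat body. The brightest of the 12, Lsp2, apolpp and FASN1, had log2 fold changes of -0.35, -0.08 and -0.27. The summed intensity of that list without Obp99b was 20202 to 21718 in deletion males and 25562 to 27105 in wild-type males, and its part in the values of Obp99d was not tested. Obp99c, separated from Obp99d by 2 genes on the other side, had 5509.8, 4935 and 5129.9 in deletion males and 5715, 5185 and 4946 in wild-type males, a log2 fold change of -0.02 with a 95% interval of -0.17 to 0.12.

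**Figure D3:**
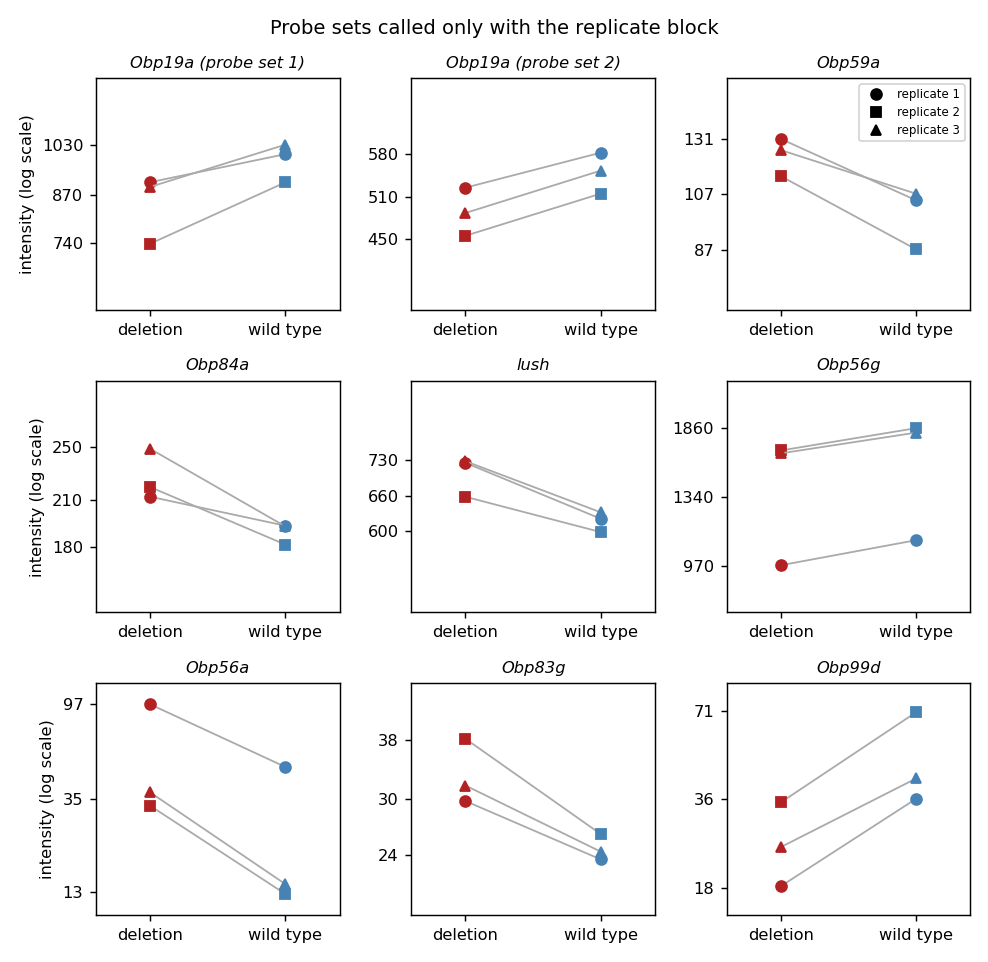
Intensity on a log scale of the 9 probe sets of 8 genes called only with the replicate block, deletion males left and wild-type males right, with grey lines joining arrays of equal replicate number. In every panel the 3 lines slope the same way, upwards to wild type for Obp19a, Obp56g and Obp99d and downwards for the others.

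Obp83g rose with the block. It had 29.8, 38.3 and 31.7 in deletion males and 23.5, 26.1 and 24.3 in wild-type males, without overlap, a log2 fold change of 0.41 ± 0.11 (SE) and a limma adjusted p of 0.0938, or 0.0377 with the block. Its neighbours Obp83cd and Obp83ef had log2 fold changes of -0.06 and -0.13 and no call. The X-linked Obp19c, between Obp19b and Obp19d in a run of 4 adjacent members, had 32.4, 30.0 and 33.6 in deletion males and 23.1, 26.9 and 23.6 in wild-type males on its brighter probe set. The genotypes did not overlap, but the log2 fold change of 0.37 ± 0.09 (SE) had a limma adjusted p of 0.0784, and 0.0764 with the block. Its other probe set was below the filter and had 0.04.

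In the Obp19 run on the X, 1678 to 1681 genes from Sxl, the log2 fold changes were -0.21 and -0.17 for Obp19a, -0.02 for Obp19b, 0.37 for Obp19c and 0.05 for Obp19d. In the Obp56 cluster they were 1.20 for Obp56a, 0.06 for Obp56d and 0.42 for Obp56e, with Obp56b, Obp56c and Obp56f below the filter, and, past another 112 genes, -0.15 for Obp56g and 0.09 for Obp56h. In the run of Obp57c, Obp57b and Obp57a they were -0.08, -0.12 and 0.10. The differences between neighbours were not tested.

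Of the other members without an assigned site, Obp18a, on the X 1470 genes from Sxl, had 798, 739.8 and 727 in deletion males and 819.7, 782 and 771 in wild-type males, a log2 fold change of -0.07 with a 95% interval of -0.19 to 0.05. Obp57c had 1203, 1192 and 1266 in deletion males and 1285, 1260.3 and 1323 in wild-type males (-0.08, interval -0.18 to 0.02). Obp57a and Obp56h, with 0.10 and 0.09, and Obp57b (-0.12) were not called. Obp58d and Obp99a were dim, with means of 9.78 and 11.0 in deletion males and 9.27 and 11.7 in wild-type males, and had log2 fold changes of 0.07 and -0.07.

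**Figure D4:**
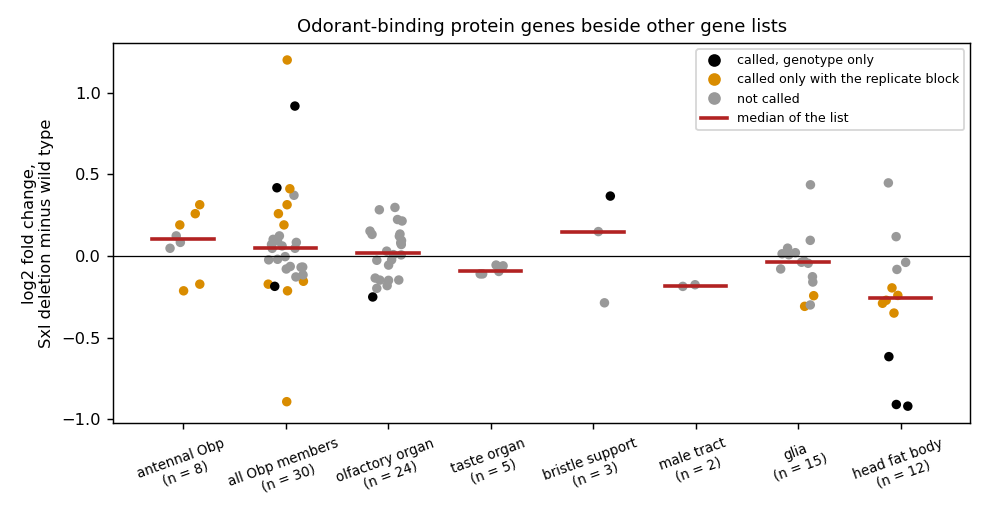
Log2 fold change (deletion minus wild type) of tested antennal members, all 30 tested members and 6 other gene lists, with 1 probe set for each gene of the other lists and the list's median as a red bar. Black points were called with genotype as the only term and orange points only with the block. The antennal median is 0.10, that of the olfactory organ list 0.02 and that of the head fat body list -0.26. Each list's points are the tested genes alone, and Obp99b is among the fat body points.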

How the data were processed

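RNA from male heads was measured on 3 arrays of Sxl deletion males and 3 of wild-type males. The authors deposited 1 linear intensity per probe set and array. How scans were turned into intensities: not given in the sources used here. Medians differed by 0.05 on the log2 scale, under the bound of 0.2, so no normalization was added. Arrays have no read depth, and their number limits the precision: the median SE of a log2 fold change was 0.08. Array correlations were 0.994 to 0.998, and no arrays were identical.

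Of 18769 probe sets that are not controls, 13647 named 1 gene in the platform annotation, 402 several and 4720 none. A RefSeq table (Release 6 plus ISO1 MT) gave current symbols, by Entrez number for 13544 and by name for 91 of the 13647, and also chromosomes and gene order. Gene order followed the start coordinates of that table, and distances are given in genes, not in bases.

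The test, two-sided and with genotype as the only term, was limma's (version 3.58.1 under R 4.3.3; lmFit, then eBayes with an intensity trend) on log2(intensity + 1). The filter was the 40th percentile of mean log2 intensity, the threshold an adjusted p of 0.05, and p was adjusted by Benjamini-Hochberg over all tested probe sets. This fit was tested on simulated arrays with independent noise and nothing shared by replicate number. The fit with the replicate block was not tested in this way. Figures were drawn with matplotlib 3.10.9.

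After subtraction of each genotype's mean, arrays of equal replicate number had correlations of 0.216, 0.248 and 0.114, all above the bound of 0.1, and other arrays of different genotype had -0.223 to 0.0573. The numbers were therefore taken to pair the arrays, on the values alone.

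Members, gene lists and known sites of expression were chosen with earlier results of these data known. Values in every array are given for members called in either fit and for up to 3 brightest tested members of each known site, and others were chosen after their values were seen. Alternatives changed the filter, scaling (quantile), pseudocount, trend or robustness of the variance estimate and array weights, added the replicate block, or left out single arrays.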

Additional observations from a re-analysis of the deposited data

How the results depend on the processing

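The count of 3 called member probe sets was 12 with the replicate block and 1 without the intensity trend, and 1 to 3 with single arrays left out. Obp8a was called under every alternative run. The count of 293 over all probe sets was 833 with the block, 128 without the trend and 572 with array weights, and 54 to 432 with single arrays left out, lowest without deletion replicate 2. It was 85, 54 and 61 without deletion replicates 1, 2 and 3, and 432, 110 and 157 without wild-type replicates 1, 2 and 3. The member count was 1 without deletion replicate 1 or 3 or wild-type replicate 2 or 3. The block removed none of the 3 calls and added 9, of Obp19a (on both probe sets), Obp56a, Obp56g, Obp59a, Obp83g, Obp84a, Obp99d and lush. The median log2 fold change of the tested members stayed between 0.02 and 0.05. No member called with genotype only turned its sign under any alternative run. Signs turned after quantile normalization for Obp19d (-0.016, adjusted p = 0.887) and Obp49a (0.0030, adjusted p = 0.989), and with single arrays left out for Obp49a (-0.0743 to 0.0314), Obp19b (-0.0727 to 0.0112), Obp83cd (-0.12 to 0.01), Obp99a (-0.16 to 0.05), Obp99c (-0.07 to 0.03) and Obp56g (-0.40 to 0.10), which was called with the block. Members without an assigned site that were called in neither fit were not followed after quantile normalization, with the other pseudocount or with array weights. The causes of these changes were not tested. Background was not measured, so differences of dim members may be understated.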

Other observations

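Obp57d, Obp50b and Obp50c are annotated only to probe sets shared with another gene. A brighter probe set of 2 annotated to both Obp57d, a taste member of the legs, and the cuticle gene Cpr57A had 198, 209 and 219 in deletion males and 177, 187 and 178 in wild-type males, a log2 fold change of 0.20 with a limma adjusted p of 0.129, or 0.0769 with the block. The deletion arrays were all higher. On the dimmer of the 2 the genotypes overlapped, with means of 9.28 in deletion males and 8.80 in wild-type males. Its log2 fold change was 0.07 with a limma adjusted p of 0.778, or 0.734 with the block. Which of the genes gives the signal cannot be told from the annotation. The probe sets shared by Obp50b and Obp50c were below the filter, at 5.63 to 7.54 in deletion males and 6.18 to 9.11 in wild-type males.

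Beside Obp59a, the gene CG30269 rose to 285 ± 8.99 in deletion males, against 229 ± 2.98 in wild-type males (SD, n = 3 arrays each; log2 fold change 0.31, limma adjusted p = 0.0238). It was the 1 called among 10 tested probe sets of the 10 genes on either side. Within the same distance of lush, Oat had 333 ± 24.0 in deletion males and 416 ± 57.2 in wild-type males (log2 fold change -0.31, limma adjusted p = 0.158, or 0.0339 with the block), the direction opposite to that of lush.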
